A study of Mus musculus with 6 samples.

Results

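Translation initiation factors are the proteins that bring the small ribosomal subunit, the initiator tRNA and an mRNA together. The eIF2 kinases are the enzymes that slow this step down under stress. Their genes were taken as all symbols that begin with Eif and a digit, without the Argonaute genes once named Eif2c and without pseudogene symbols, which gave 54 of the 25896 gene symbols measured (263 of 76938 transcripts). Of these, 53 had enough counts to be tested. The remaining member, Eif4e1b, an eIF4E relative best known from oocytes, had counts of 1, 0 and 0 in WT and 1, 0 and 1 in Dicer1-ifKO.

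The mRNA came from the hippocampus of male C57BL/6 mice, with 3 WT and 3 Dicer1-ifKO libraries. All mice were homozygous for a floxed Dicer1 allele, all received tamoxifen, and all were killed 3 weeks later at an age of 3 months. Dicer1 encodes the ribonuclease that cuts microRNA precursors to their mature length. The Dicer1-ifKO group had, in addition, the transgene CaMKIIa-creERT2, a recombinase that tamoxifen activates and whose promoter is used by excitatory neurons of the forebrain. WT mice had no recombinase, so that the loss of Dicer1 and the presence of the active transgene cannot be told apart. Each library pooled RNA of 3 mice. Cells that do not use the promoter also contributed RNA to both groups.

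In the scanning pathway, eIF2 carries the initiator tRNA to the small subunit, eIF1, eIF1A, eIF3 and eIF5 help it find the start codon, and eIF4E, eIF4G and eIF4A bind the cap and open the mRNA. eIF2 leaves with GDP, and eIF2B recharges it with GTP. A kinase that phosphorylates the α subunit of eIF2 turns it into an inhibitor of eIF2B, which lowers initiation in general. In the hippocampus this switch is known for its part in memory formation.

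Counts summed over 1 transcript per gene ranged from 11832791 to 20677846 per library, so that 3 counts stood for 0.145 to 0.254 CPM (counts scaled to the size of the library). WT replicate 1 had the lowest depth and lay at -26.6 on the first principal component, against 1.5 to 10.1 for the other libraries. Dicer1 itself was at 57.8 ± 3.63 CPM in WT and 59.7 ± 2.82 CPM in Dicer1-ifKO (SD, n = 3 each), a count over a whole transcript that does not check the deleted part. Markers of excitatory neurons summed to 5113 to 5262 CPM in WT and 5266 to 5620 CPM in Dicer1-ifKO, and all of the 6 markers were expressed. Of the 6, 4 had a positive log2 fold change, the median was 0.005 and 0 passed the test. The 4 markers of dentate granule cells summed to 285 to 295 CPM in WT and 252 to 274 CPM in Dicer1-ifKO, with Calb1 past the test. Of the 4, 1 had a positive log2 fold change, and the median was -0.11. Markers of astrocytes (5 genes) summed to 1040 to 1067 CPM in WT and 1013 to 1037 CPM in Dicer1-ifKO. Of the 5, 2 had a positive log2 fold change, the median was -0.05 and 0 passed the test. The sums overlapped for inhibitory neurons, oligodendrocytes and their precursors, microglia, endothelial cells, choroid plexus, erythrocytes and injury genes, and no marker of any list was listed at 0 in all libraries. A sum is carried most by the markers of highest level. The part of these differences between sums in the results on initiation factors was not tested.

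Of the 53 tested members 1 was lower in Dicer1-ifKO at an adjusted p below 0.05 and 0 were higher. Over all 17405 genes, edgeR's quasi-likelihood test (p adjusted by Benjamini-Hochberg) called 0.0345% lower, 0.126% higher and 0.161% in either direction. The called member was Eif2s1, the α subunit of eIF2. At an unadjusted p below 0.05 by the same test, 6 members (11.3%) differed, 2 higher and 4 lower, against 10.4% of all genes (5.63% higher, 4.8% lower). The libraries of the genotypes did not overlap for 14 members (26.4%), 4 higher and 10 lower, against 16.1% of all genes (7.99% higher, 8.07% lower). Among the 8522 genes with a mean log2 CPM from 4.14 to 7.71, the span that held most members, the shares were 13.3% at an unadjusted p below 0.05 and 19.1% without overlap. The differences of most members were small: 42 (79.2%) lay within 0.1 of 0 on the log2 scale, against 59.9% of all genes and 74.7% of genes at similar levels. The median log2 fold change, Dicer1-ifKO over WT, was -0.01 over the members and -0.003 over all genes, with 29 members (54.7%) and 51% of all genes below 0. Summed over all members the mRNAs took 5287, 5229 and 5256 CPM in WT and 5160, 5180 and 5241 CPM in Dicer1-ifKO, sums that overlapped between the genotypes.

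**Figure D1:**
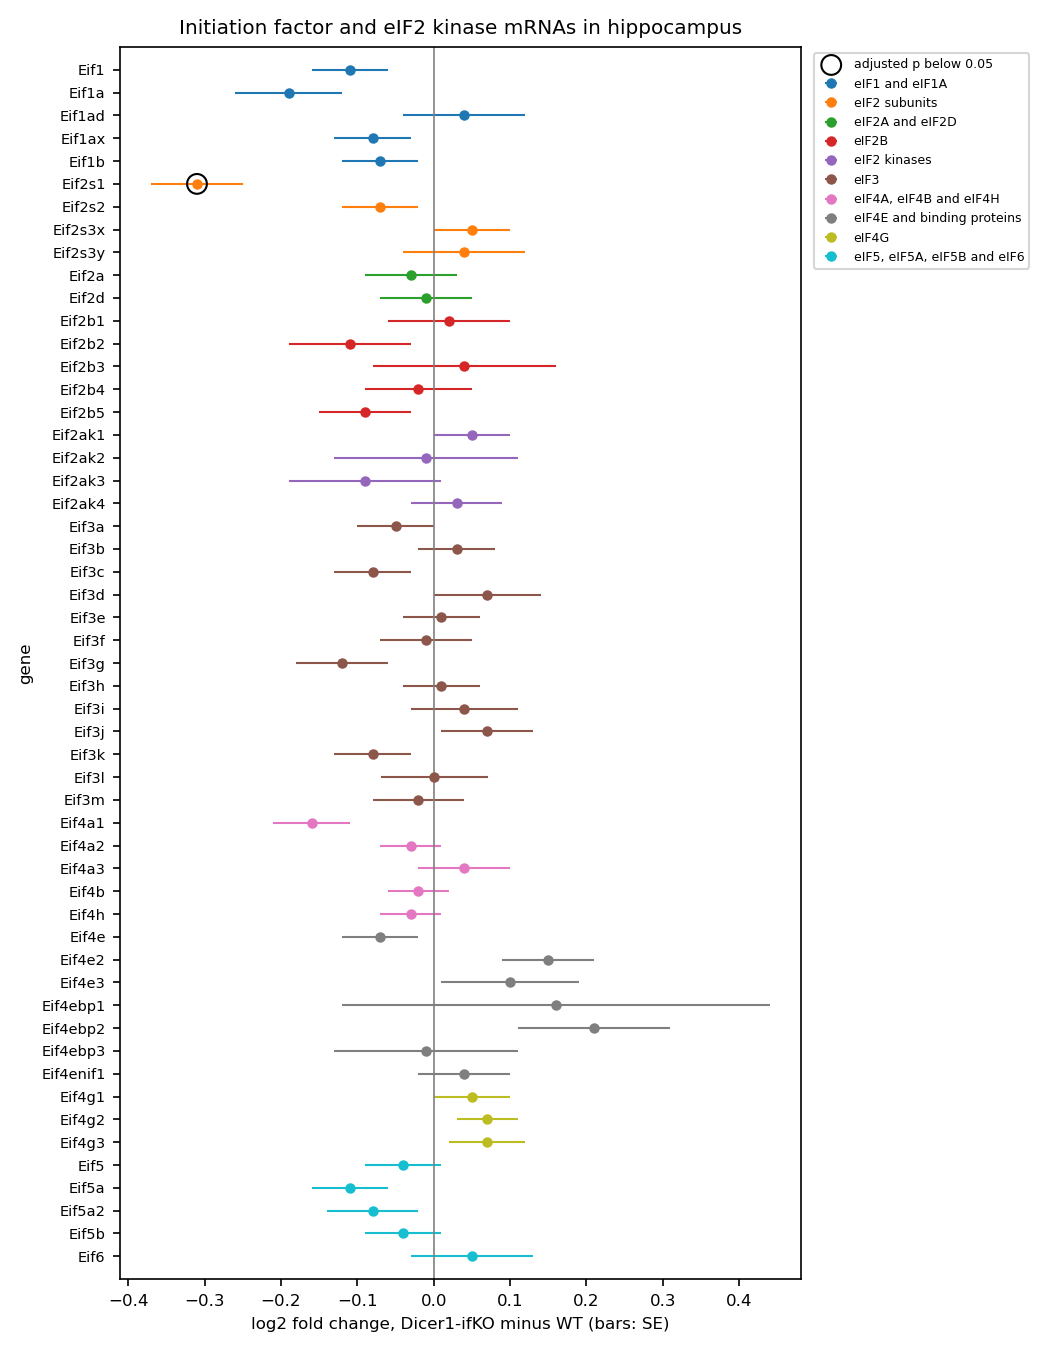
Log2 fold change of each of the 53 tested members (x axis, Dicer1-ifKO over WT) with bars of 1 SE to each side, genes grouped and coloured by complex on the y axis and a ring around the member with an adjusted p below 0.05. Eif2s1, at -0.31, lies farthest from 0, and 42 members lie within 0.1 of it.

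Eif2s1 encodes eIF2α, the subunit of eIF2 that the kinases phosphorylate. It lies on chromosome 12 at 78861819 to 78887010 (plus strand, GRCm38) and has 1 transcript in the files. The kinases act on a serine that is residue 51 of the mature chain and codon 52 when the start codon is counted. In the GENCODE M21 transcript that codon begins at coding nucleotide 154 of 948. It is shown here because it is the site on which the 4 kinases described below converge; capitals mark the serine codon.
Eif2s1 phosphorylation site: cttagtgaattaTCCagacgacgtatc

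Eif2s1 fell in Dicer1-ifKO. Its counts were 470, 656 and 658 in WT and 506, 576 and 687 in Dicer1-ifKO. Scaled to the depth of each library, these were 40, 41.3 and 40.5 CPM in WT and 32.9, 32 and 33.5 CPM in Dicer1-ifKO. The spread within each group was small, and every WT library was above every Dicer1-ifKO library. The means were 40.6 ± 0.65 CPM and 32.8 ± 0.788 CPM (SD, n = 3 each), a fall of the fitted level by 0.31 on the log2 scale (SE 0.06, 95% confidence interval -0.44 to -0.18), which is a change of -19.2%. In edgeR's quasi-likelihood test the p adjusted by Benjamini-Hochberg over 17405 genes was 0.0452. Among the 6684 genes whose mean log2 CPM was 5 or more, Eif2s1 had rank 5 from the lowest log2 fold change. Over all 17405 tested genes, which include those of lower level, its rank was 577. The cut of 5 lies not far below the level of Eif2s1, which was singled out by its test in the same libraries. These ranks are therefore a description only. In bulk tissue, fewer cells of a type and less RNA per cell cannot be told apart.

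The size of the difference in Eif2s1 held between -0.33 and -0.29 on the log2 scale over 14 other settings, but the adjusted p crossed the threshold. In edgeR it was 0.0832, 0.0569 and 0.152 without WT replicate 1, 2 or 3, and 0.255, 0.227 and 0.0754 without Dicer1-ifKO replicate 1, 2 or 3, with fewer samples in each fit. It was 0.0675 in DESeq2, 0.0526 with an offset for transcript length and GC content, 0.0953 with a replicate block and 0.275 on counts summed over all transcripts of each gene. Since Eif2s1 has 1 transcript, its own counts were the same in the fit on sums, with a log2 fold change of -0.31. Only the counts of other genes changed there. Of the 50-base stretches of its transcript, 8.49% also occur in other annotated transcripts, 5.13% in the pseudogene Gm12734.

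The other subunits of eIF2 did not pass the test. Eif2s2, the β subunit, was at 72.4, 75.5 and 70.9 CPM in WT and 68.7, 67.9 and 71.5 CPM in Dicer1-ifKO. The highest Dicer1-ifKO library lay above the lowest WT library, and the log2 fold change was -0.07 (SE 0.05, interval -0.18 to 0.04, edgeR adjusted p = 0.694). Eif2s3x, the X-linked γ subunit that binds GTP and the initiator tRNA, was at 95.7, 92.7 and 97.6 CPM in WT and 99.9, 97.8 and 99.2 CPM in Dicer1-ifKO. These groups did not overlap, with Dicer1-ifKO above WT, and the log2 fold change was 0.05 (SE 0.05, interval -0.05 to 0.15, edgeR adjusted p = 0.759). Eif2s3y, its Y-linked copy, was at 65, 55 and 49.4 CPM in WT and 54.7, 62.9 and 55.3 CPM in Dicer1-ifKO. WT replicate 1 was its highest library and WT replicate 3 its lowest, and the log2 fold change of 0.04 (SE 0.08, interval -0.12 to 0.20, edgeR adjusted p = 0.897) became -0.05 without WT replicate 3 and -0.03 without Dicer1-ifKO replicate 2. Identical 50-base stretches in other transcripts made up 27.8% of Eif2s2, mostly in Gm9892, and 36.2% of Eif2s3x, mostly in Gm2223, so that some reads of these 2 genes could be split.

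The α subunit was also set against its partners within each library. Per kilobase of transcript, the level of Eif2s1 was 0.412, 0.408 and 0.426 of that of Eif2s2 in WT and 0.357, 0.352 and 0.35 in Dicer1-ifKO. Relative to Eif2s3x the level per kilobase was 0.448, 0.477 and 0.444 in WT and 0.352, 0.35 and 0.362 in Dicer1-ifKO. For both partners every WT ratio was above every Dicer1-ifKO ratio, a comparison that rests on the same Eif2s1 counts. Eif2s2 relative to Eif2s3x was at 1.09, 1.17 and 1.04 in WT and 0.987, 0.996 and 1.03 in Dicer1-ifKO, also without overlap. A separated ratio was therefore not particular to pairs with Eif2s1. In WT, levels per kilobase were 11.9 CPM per kb for Eif2s1, 28.7 for Eif2s2, 26.1 for Eif2s3x and 18.1 for Eif2s3y, so the α subunit had the lowest level of the 4 mRNAs in both genotypes.

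**Figure D2:**
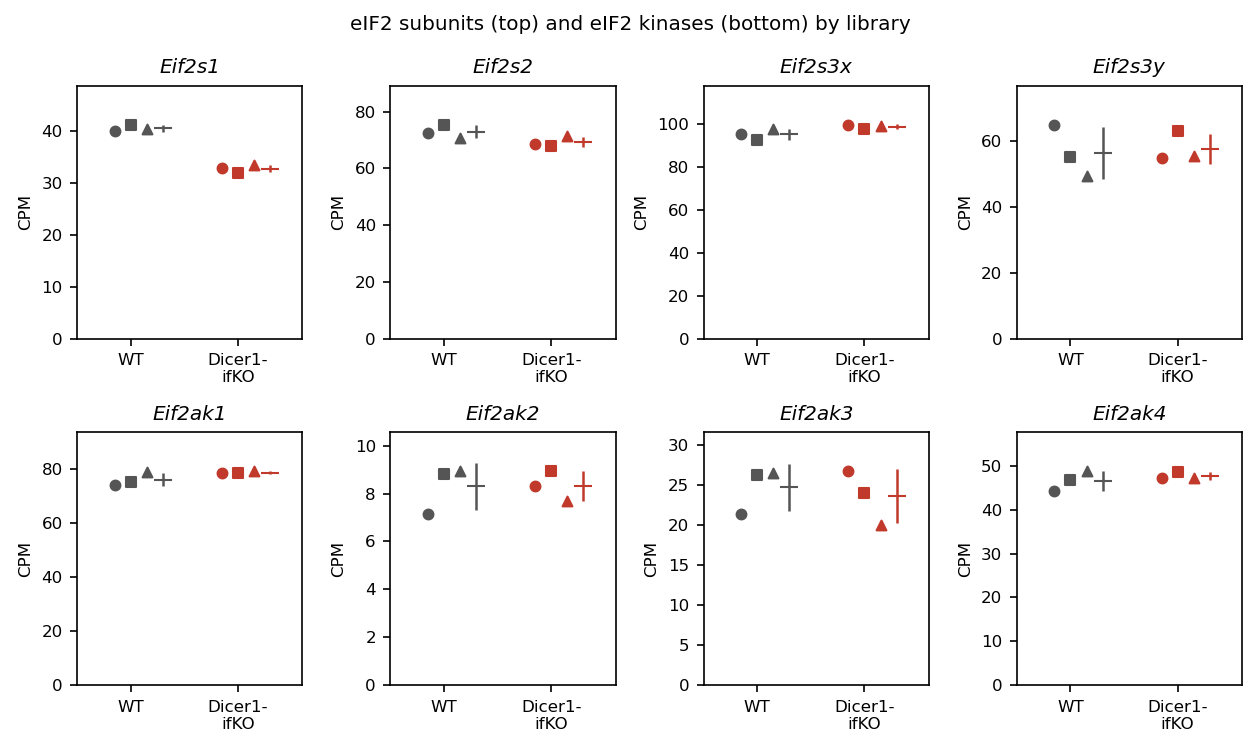
CPM of the eIF2 subunits and of the 4 eIF2 kinases in each library (y axis, linear), 1 panel per gene with an axis from 0. Circle, square and triangle stand for replicates 1, 2 and 3, and the cross for the group mean with bars of 1 SD (n = 3). Eif2s1 lies between 40 and 41.3 CPM in WT and between 32 and 33.5 CPM in Dicer1-ifKO, whereas the groups overlap for all 4 kinases.

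None of the 4 eIF2 kinase mRNAs passed the test, and the groups overlapped for each. Eif2ak1 encodes HRI, the kinase known as a heme sensor. It was at 74.1, 74.9 and 78.8 CPM in WT and 78.2, 78.3 and 79.1 CPM in Dicer1-ifKO, with a log2 fold change of 0.05 (SE 0.05, interval -0.06 to 0.15, edgeR adjusted p = 0.797). Eif2ak2 encodes PKR, which double-stranded RNA activates. It was at 7.15, 8.81 and 8.92 CPM in WT and 8.31, 8.94 and 7.67 CPM in Dicer1-ifKO, with a log2 fold change of -0.01 (SE 0.12, interval -0.27 to 0.24, edgeR adjusted p = 0.984). Eif2ak3 encodes PERK, the kinase of the endoplasmic reticulum stress response. It was at 21.4, 26.3 and 26.6 CPM in WT and 26.8, 24.1 and 20.1 CPM in Dicer1-ifKO, with a log2 fold change of -0.09 (SE 0.10, interval -0.29 to 0.12, edgeR adjusted p = 0.812). Its highest and its lowest value were both in Dicer1-ifKO. Eif2ak4 encodes GCN2, which senses uncharged tRNA. It was at 44.3, 46.8 and 48.9 CPM in WT and 47.2, 48.7 and 47.2 CPM in Dicer1-ifKO, with a log2 fold change of 0.03 (SE 0.06, interval -0.10 to 0.15, edgeR adjusted p = 0.909).

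The intervals bound what these libraries could have missed. For Eif2ak1 and Eif2ak4 a difference beyond 0.15 on the log2 scale lies outside the interval in either direction, whereas the interval reaches -0.27 for Eif2ak2 and -0.29 for Eif2ak3. The signs were unstable: leaving out 1 library turned Eif2ak2 to 0.03 (without WT replicate 2), 0.04 (without WT replicate 3) or 0.05 (without Dicer1-ifKO replicate 3), Eif2ak3 to 0.02 (without Dicer1-ifKO replicate 3) and Eif2ak4 to -0.004 (without WT replicate 1). By level per kilobase in WT, Eif2ak1 came first with 17.6 CPM per kb, then Eif2ak4 with 8.95, Eif2ak3 with 5.49 and Eif2ak2 with 1.92. The same order held in Dicer1-ifKO. The length used for Eif2ak1 was matched by symbol and may differ from that of the counted transcript, whereas the other kinases were matched by coordinates. For Eif2ak1, 12.1% of its 50-base stretches also occur in other transcripts, most of them in the overlapping gene Aimp2. Atf4, whose translation rises when eIF2α is phosphorylated, had 65, 59 and 64 CPM of mRNA in WT and 56.1, 56.5 and 56.9 CPM in Dicer1-ifKO. Its log2 fold change was -0.15 (SE 0.06) with an edgeR adjusted p of 0.341, and all WT libraries were above all Dicer1-ifKO libraries.

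The 5 subunits of eIF2B, the exchange factor that the phosphorylated eIF2 blocks, had log2 fold changes from -0.11 for Eif2b2 to 0.04 for Eif2b3, and 0 of 5 passed the test or reached an unadjusted p below 0.05 in edgeR. Their summed level was 127, 120 and 122 CPM in WT and 119, 120 and 118 CPM in Dicer1-ifKO. Eif2b5, the catalytic ε subunit, was at 42.6, 42.2 and 40.1 CPM in WT and 40.1, 39.6 and 37.5 CPM in Dicer1-ifKO. It was the single subunit whose groups did not overlap, by a margin smaller than the rounding. Eif2a and Eif2d, which encode factors that can deliver initiator tRNA without eIF2, had log2 fold changes of -0.03 and -0.01 and overlapping groups.

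eIF1 and eIF1A are small factors that keep the ribosome scanning for the start codon. Of the 5 genes whose symbols begin with Eif1, 4 had a negative log2 fold change (51% of all genes were below 0). The median was -0.08, and 0 passed the test. The positive one was Eif1ad (0.04), which was grouped here by its symbol alone. Summed, the 5 genes took 436, 410 and 430 CPM in WT and 399, 399 and 399 CPM in Dicer1-ifKO. Eif1a, an eIF1A copy that is not on a sex chromosome in the mouse, had the smallest p of the group. It was at 31.5, 31.6 and 29.1 CPM in WT and 28.2, 26 and 26.6 CPM in Dicer1-ifKO, with no overlap. Its log2 fold change was -0.19 (SE 0.07) with an edgeR adjusted p of 0.324. The X-linked Eif1ax, a gene of higher level, was at 139, 140 and 139 CPM in WT and 133, 136 and 129 CPM in Dicer1-ifKO, again without overlap, with a log2 fold change of -0.08 (SE 0.05, edgeR adjusted p = 0.615). Eif1 and Eif1b, the copies of eIF1 itself, had log2 fold changes of -0.11 and -0.07.

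eIF3 is the largest initiation factor, a scaffold on the small ribosomal subunit, and all of its 13 genes were tested. Of these 7 had a positive and 6 a negative log2 fold change, 0 passed the test and 0 reached an unadjusted p below 0.05 in edgeR, and 12 lay within 0.1 of 0. Their range was -0.12 for Eif3g to 0.07 for Eif3d. Eif3g, an RNA-binding subunit, was at 52.6, 49.3 and 50.2 CPM in WT and 46.5, 44 and 48.8 CPM in Dicer1-ifKO, just outside an unadjusted p of 0.05 (log2 fold change -0.12, SE 0.06, edgeR adjusted p = 0.493). The groups did not overlap for 3 of the 13, Eif3c, Eif3g and Eif3k, all lower in Dicer1-ifKO, against 8.07% of all genes that were lower without overlap. Summed over the complex, WT had 1034, 1011 and 1031 CPM and Dicer1-ifKO 999, 1002 and 1033 CPM, values that overlapped. Reads of Eif3j and Eif3m are uncertain, since 54.8% and 40% of their 50-base stretches occur in other transcripts.

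Among the RNA helicase eIF4A and its helpers eIF4B and eIF4H, 4 of 5 genes had a negative log2 fold change and 0 passed the test. Eif4a1, the general form of the helicase, came nearest to the threshold after Eif2s1. It was at 269, 246 and 261 CPM in WT and 225, 227 and 243 CPM in Dicer1-ifKO, and the highest Dicer1-ifKO library stayed just below the lowest WT library. Its log2 fold change was -0.16 (SE 0.05), with an edgeR adjusted p of 0.218. Of its 50-base stretches 65.3% also occur elsewhere, mainly in the pseudogene Eif4a-ps4. Eif4a2, the form abundant in brain, was at 595, 570 and 576 CPM in WT and 559, 568 and 581 CPM in Dicer1-ifKO, with overlap and a log2 fold change of -0.03. It was also the member with the highest level per kilobase, 264 CPM per kb in WT against 146 for Eif4a1. The level of Eif4a1 per kilobase was 0.561, 0.535 and 0.562 of that of Eif4a2 in WT and 0.501, 0.496 and 0.519 in Dicer1-ifKO, ratios that did not overlap.

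Of the 7 tested genes of the cap-binding eIF4E proteins and their binding proteins, 5 lay above 0 and 2 below (51% of all genes were below 0). The median log2 fold change was 0.10, and 0 passed the test. Eif4e3 was at 0.10 and Eif4enif1 at 0.04. Eif4e, the general cap-binding protein, was at 90.1, 88.4 and 87.3 CPM in WT and 88.9, 81.2 and 83.6 CPM in Dicer1-ifKO, which overlapped (log2 fold change -0.07). Eif4e2, a cap-binding relative (4EHP) that represses rather than starts translation, was at 49.7, 46.5 and 44.2 CPM in WT and 53.2, 52.3 and 50.3 CPM in Dicer1-ifKO. All Dicer1-ifKO libraries were above all WT libraries, with a log2 fold change of 0.15 (SE 0.06, edgeR adjusted p = 0.371). Per kilobase, Eif4e2 stood at 0.793, 0.756 and 0.728 of Eif4e in WT and 0.86, 0.926 and 0.864 in Dicer1-ifKO, again without overlap. Ratios computed in the same way overlapped for Eif2s3y to Eif2s3x, Eif5a2 to Eif5a, Eif1a to Eif1ax and Eif1b to Eif1. How often such ratios separate over all pairs of genes was not computed.

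The genes of the eIF4E-binding proteins, which keep eIF4E from eIF4G until mTORC1 phosphorylates them, had low counts. Eif4ebp2, the form known as the main one in brain, was at 10.5, 11.3 and 10.6 CPM in WT and 12.2, 12.7 and 12.5 CPM in Dicer1-ifKO. Every Dicer1-ifKO library was above every WT library, and the log2 fold change of 0.21 (SE 0.10) was the highest of all members. The edgeR adjusted p was 0.467, and the gene was just inside an unadjusted p of 0.05. Eif4ebp1 had mean levels of 1.11 CPM in WT and 1.24 CPM in Dicer1-ifKO with overlap, and its log2 fold change of 0.16 had the largest SE of all members, 0.28. Eif4ebp3 had a log2 fold change of -0.01, with 65.5% of its 50-base stretches in other transcripts.

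The eIF4G scaffolds link the cap to the ribosome. All 3 had a positive log2 fold change, 0.05 for Eif4g1 and 0.07 each for Eif4g2 and Eif4g3, and 0 passed the test or reached an unadjusted p below 0.05 in edgeR. Their transcripts are long, at 5444, 7995 and 8134 nt. Of all genes of 4000 nt or more, 36.3% were below 0, with a median log2 fold change of 0.03. The part of length in the values of the 3 genes was not tested. Eif4g2, also called DAP5, which lacks the part that binds eIF4E, was at 522, 528 and 517 CPM in WT and 544, 553 and 553 CPM in Dicer1-ifKO. Its groups did not overlap (SE 0.04, edgeR adjusted p = 0.568). Eif4g1 and Eif4g3 were each at 246 CPM in WT replicate 1, their lowest library, and between 265 and 284 CPM in the other 5.

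The last group joins the ribosomal subunits or acts on the finished complex. Of its 5 genes 4 had a negative log2 fold change, and 0 passed the test. Eif5a, whose product carries the modified lysine hypusine and acts mainly in elongation, was at 197, 176 and 186 CPM in WT and 172, 168 and 176 CPM in Dicer1-ifKO. Its lowest WT and highest Dicer1-ifKO libraries were equal after rounding, and the log2 fold change was -0.11 (SE 0.05, edgeR adjusted p = 0.41). It was -0.07 without WT replicate 1, the highest library. Eif5, the GTPase-activating protein of eIF2, Eif5b, which joins the subunits, Eif5a2 and Eif6, which keeps the large subunit apart, had log2 fold changes from -0.08 to 0.05 and overlapping groups.

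**Figure D3:**
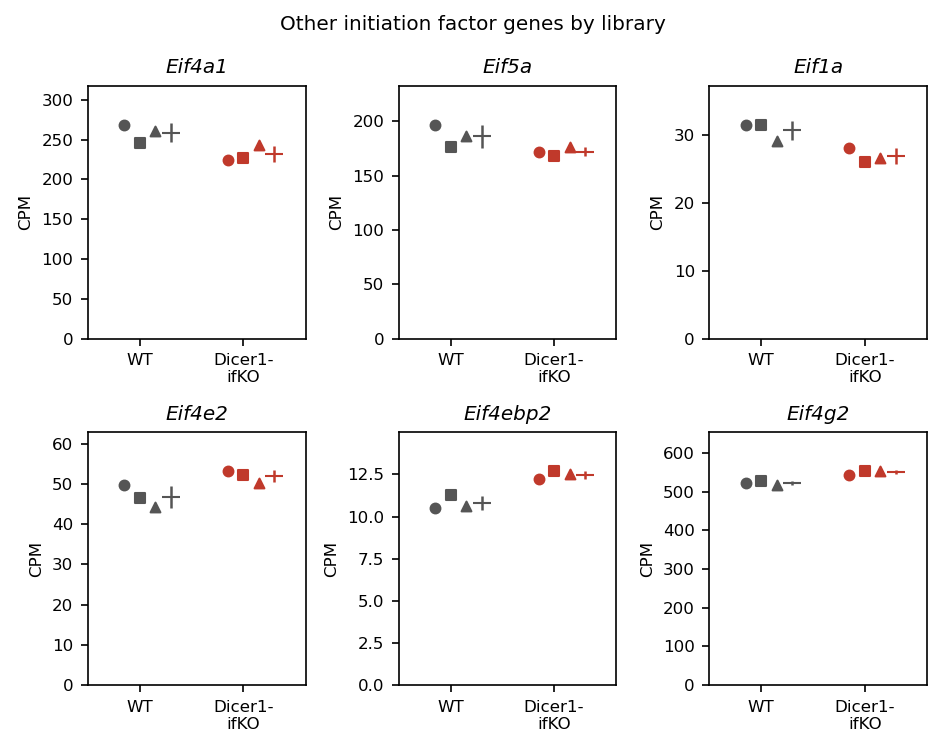
CPM in each library (y axis, linear from 0, 1 panel per gene) of the 5 members outside eIF2 at an unadjusted p below 0.05 and of Eif4g2; circle, square and triangle stand for replicates 1, 2 and 3, and the cross for the group mean with bars of 1 SD (n = 3). Eif4a1, Eif5a and Eif1a have lower means in Dicer1-ifKO and Eif4e2, Eif4ebp2 and Eif4g2 higher ones, and 0 of them passed the adjusted test.

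**Figure D4:**
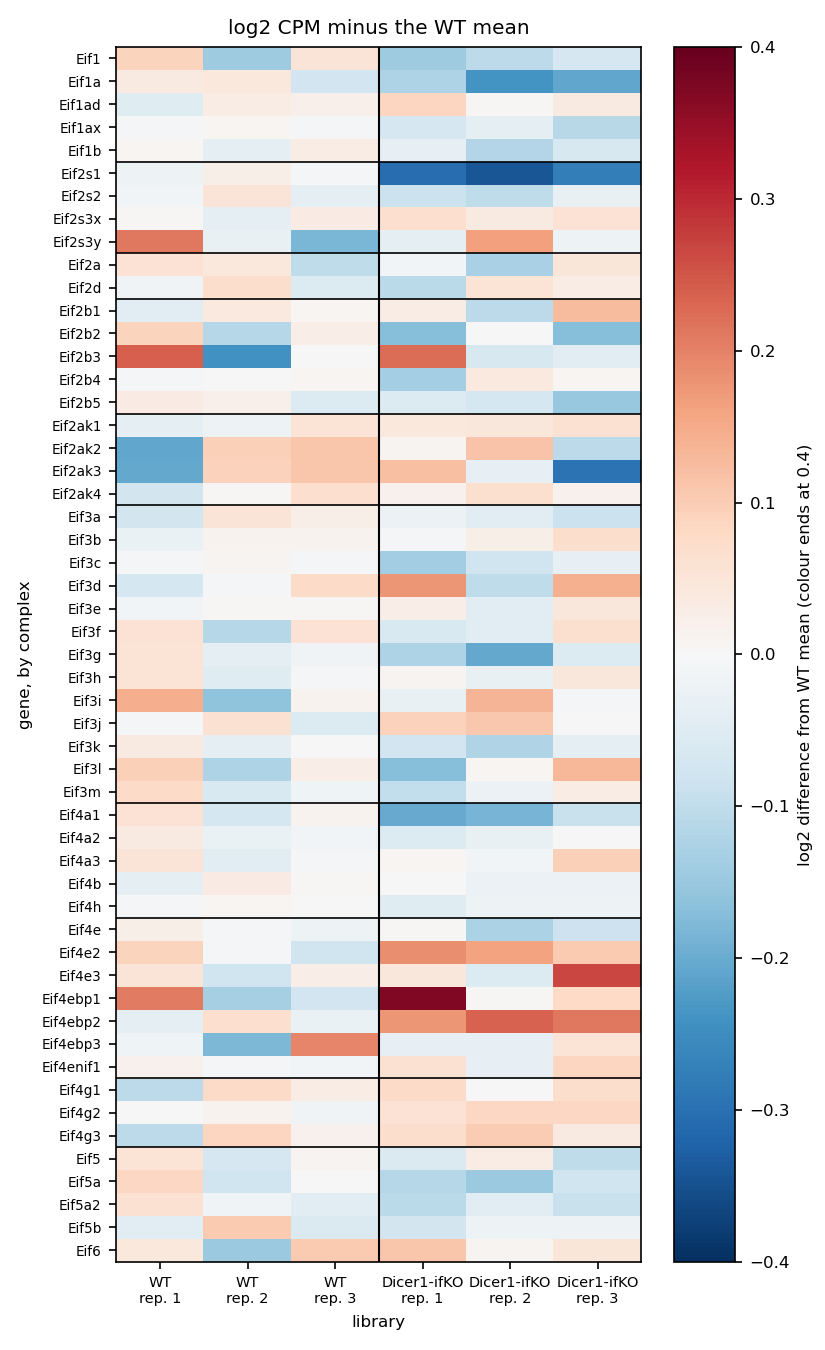
Log2 CPM of each tested member in each library minus that member's WT mean (colour, log2 units, blue for lower and red for higher), with members in rows ordered by complex and libraries in columns. In the row of Eif2s1 all 3 Dicer1-ifKO libraries lie well below WT, and WT replicate 1 stands apart from WT replicates 2 and 3 in several rows, Eif4g1 and Eif4g3 among them.

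The transcripts of the members were also tested one by one. Of 263 transcripts 251 were tested, among 60500 in all, and edgeR called 0 of them, against 0.0777% of all transcripts. The lowest adjusted p was 0.0639, for the transcript of Eif2s1. At an unadjusted p below 0.05, 7 were higher and 28 lower (13.9%, against 9.44% of all transcripts in either direction), with 4.43% of all transcripts lower, and these came from 12 genes, since reads in shared exons were counted for each transcript. Without WT replicate 2, 5 transcripts were called, all of Eif4a1 (log2 fold changes from -0.37 to -0.28). These 5 overlap in position and can share reads, so they are not separate observations. In the same setting the number of genes called over all genes rose from 28 to 105. The share of all transcripts called in it is not given here.

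Transcripts that cover different parts of a gene differed in their values, and the 3 genes given here were chosen after these were seen. For Eif4g2, on the minus strand, short transcripts at the 5′ end had higher log2 fold changes (Eif4g2-003 at 0.21, Eif4g2-014 at 0.27) than Eif4g2-012 near the 3′ end (0.005). The ratio of the counts of Eif4g2-003 to Eif4g2-012 was 0.885, 1.05 and 0.993 in WT and 1.17, 1.09 and 1.11 in Dicer1-ifKO. For Eif4a1, also on the minus strand, Eif4a1-003 at the 5′ end had -0.28 and Eif4a1-010 toward the 3′ end -0.13. The ratio of their counts was 0.375, 0.363 and 0.445 in WT and 0.365, 0.352 and 0.35 in Dicer1-ifKO, which overlapped. For Eif4a2, on the plus strand, the ratio of Eif4a2-012 at the 5′ end to Eif4a2-004 was 0.186, 0.215 and 0.203 in WT and 0.232, 0.237 and 0.235 in Dicer1-ifKO. WT replicate 1 had the lowest ratio for Eif4g2 and for Eif4a2.

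A list of 50 genes that act with the initiation factors, all of them tested, gave 0 calls in either direction in edgeR and in DESeq2, and 4 higher and 4 lower at an unadjusted p below 0.05 in edgeR, where 5.63% of all genes were higher and 4.8% lower. The smallest p belonged to Eef1b2, an exchange factor of elongation, at 93.2, 86.9 and 90.6 CPM in WT and 76.4, 83.1 and 81 CPM in Dicer1-ifKO. Its log2 fold change was -0.17 (SE 0.05, edgeR adjusted p = 0.221). Ncbp1, the large subunit of the nuclear cap-binding complex, was at 74.8, 69.7 and 67 CPM in WT and 61.5, 60.5 and 65.1 CPM in Dicer1-ifKO (-0.17, SE 0.06, edgeR adjusted p = 0.272). Mknk2, a kinase of eIF4E, was at 22.6, 23.4 and 25.9 CPM in WT and 29.5, 25 and 29.2 CPM in Dicer1-ifKO, with overlap (0.21, SE 0.08, edgeR adjusted p = 0.344). Nck1, an adaptor that recruits a phosphatase to eIF2, was at 15.4, 16.8 and 16.1 CPM in WT and 12.7, 14.8 and 13.8 CPM in Dicer1-ifKO, without overlap (-0.23, SE 0.09, edgeR adjusted p = 0.38).

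By role, all 6 genes listed for the phosphatase that acts on eIF2α, the adaptor Nck1 among them, had negative log2 fold changes (51% of all genes were below 0). Their median was -0.04, and 4 of the 6 lay within 0.1 of 0. They ranged from -0.23 for Nck1 to -0.02 for Ppp1r15a (GADD34), the stress-induced regulatory subunit. Of 14 genes of mTORC1 signalling and the eIF4E kinases 9 were positive, with a median of 0.04. Of 13 partners at the cap and the poly(A) tail 9 were positive, with a median of 0.02. Of 10 elongation and release factors 7 were negative, with a median of -0.06, and of 5 recycling and alternative initiation factors 4 were negative, with a median of -0.04. Both partners of GCN2, Gcn1l1 and Impact, were positive (0.16 and 0.04). The median over the 50 genes was -0.01, as it was over the members.

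Log2 fold changes in these libraries moved with transcript length. Over 16774 genes with a length, Spearman's rho between the log2 fold change and length was 0.21, and over the 53 members it was 0.22, both across genes that share the same 6 libraries. The share of genes below 0 fell from 61% under 2000 nt to 53.6% from 2000 to 4000 nt and 36.3% at 4000 nt or more. For the members these shares were 50% of 18, 60% of 20 and 53.3% of 15. Eif2s1, with a transcript of 3405 nt, lies in the middle class. Among the 872 genes from 3000 to under 3800 nt within 1 log2 CPM of it, the median log2 fold change was -0.001 and Eif2s1 itself was the lowest. The window was set around Eif2s1, which was singled out by its test in the same libraries, so that this place is a description only. With the offset for length and GC content, the fold changes of Eif5a and Eif4a1 moved to -0.07 and -0.12, and that of Eif2ak4 from 0.03 to -0.01.

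**Figure D5:**
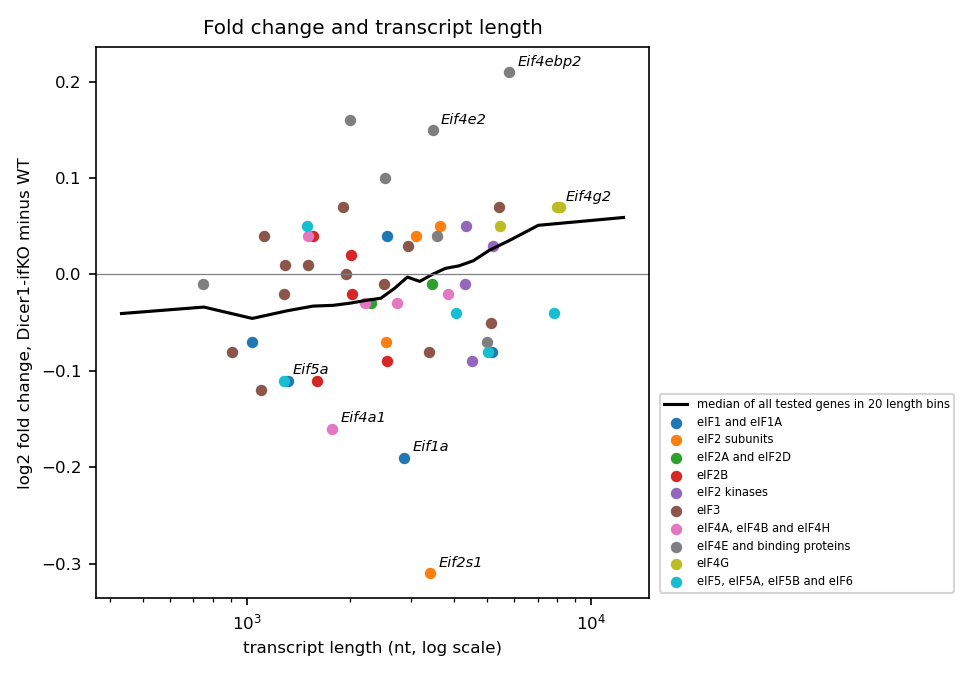
Log2 fold change, Dicer1-ifKO over WT (y axis), against transcript length in nt (x axis, log scale) for the members, coloured by complex, with a line for the median of all tested genes in bins of length. Eif2s1, at 3405 nt and -0.31, lies below the members of similar length.

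Dicer1 makes microRNAs, and microRNAs bind sites in 3′ UTRs through their seed, bases 2 to 8. The complement of the seed of 11 microRNAs known from brain was therefore sought in the 3′ UTRs of 14113 genes with at least 50 nt of UTR, among them 51 members. These 11 are a selection, and other abundant microRNAs of the brain were not searched. The UTR of Eif2s1, 2094 nt long in GENCODE M21, holds sites for 4 of the 11. The mature sequences (RefSeq, GRCm38.p6) are shown because they are the ones with a site in the member that passed the test, with the seed in capitals.
mmu-miR-9-5p: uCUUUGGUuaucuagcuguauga
mmu-miR-181a-5p: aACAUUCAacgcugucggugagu
mmu-miR-26a-5p: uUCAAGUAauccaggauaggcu
mmu-miR-30a-5p: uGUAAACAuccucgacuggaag

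The 4 sites in the Eif2s1 UTR follow, as DNA of the sense strand from GENCODE M21, with the match to the seed in capitals and positions counted from the first base of the UTR. They lie at position 1770 for miR-9-5p, 1378 for miR-181a-5p, 616 for miR-26a-5p and 1958 for miR-30a-5p.
Eif2s1 site for miR-9-5p: atgaaggtgttACCAAAGctgcaa
Eif2s1 site for miR-181a-5p: tttagggactcTGAATGTactcca
Eif2s1 site for miR-26a-5p: gcctgttaactTACTTGAaagcag
Eif2s1 site for miR-30a-5p: ttcctagggatTGTTTACtgaaaa

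Such matches are common in UTRs, at 13.8% of all UTRs for ACCAAAG (miR-9-5p), 17.6% for TGAATGT (miR-181a-5p), 10.7% for TACTTGA (miR-26a-5p) and 15.4% for TGTTTAC (miR-30a-5p), searched on the sense strand. They describe the letters and not binding. The 20 members with a site for 0 of the 11 microRNAs had a median log2 fold change of 0.004, with 9 below 0, and a median UTR of 309 nt. The 31 members with a site for at least 1 had a median of -0.01, with 19 below 0, and a median UTR of 1840 nt. The 9 members with sites for at least 3 had a median of -0.07, with 6 below 0, and a median UTR of 3866 nt, so that the number of sites moved with UTR length. Eif2s1 is 1 of these 9. Over all genes, the median log2 fold change was 0.01 to 0.02 with a site and -0.01 without, for each of the 11 microRNAs. These medians were not adjusted for length. By transcript length alone, the median over all genes went from -0.04 under 2000 nt to 0.03 at 4000 nt or more. The part of length in the medians by site was not tested. The most sites were in Eif4e and Eif4g2, for 6 microRNAs each, with log2 fold changes of -0.07 and 0.07. Eif2ak1, with sites for 5, had 0.05.

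Outside the members, the genes whose log2 CPM over the 6 libraries was most like that of Eif2s1, among 6644 genes whose mean log2 CPM was 5 or more, were Tra2b (Pearson's r = 0.993), Dnajb6 (0.986), Galnt9 (0.983), Cyb5b (0.982) and Ywhab (0.982). The points share the same 6 libraries and their genotypes. Tra2b, a splicing regulator, had a log2 fold change of -0.08, Dnajb6, a co-chaperone, -0.15, Galnt9, a glycosyltransferase, -0.12, Cyb5b, a cytochrome, -0.14, and Ywhab, a 14-3-3 protein, -0.07. None of the 5 passed edgeR's test (adjusted p from 0.219 to 0.621), and each had a smaller difference than Eif2s1.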

How the data were processed

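Hippocampal mRNA was sequenced from stranded libraries, per the labels' protocols. The submitters' processing notes name GRCm38 and mm10, TopHat2 (2.0.6) and Bowtie2 (2.0.5), SAMtools (0.1.18), CASAVA (1.8.2) and DESeq2. Counter, annotation and strand setting: not given in the sources used here. Raw counts as deposited by the authors are whole numbers for each transcript, with reads of a shared exon entered under every transcript that has it. The deposited normalised values (a signal, the count divided by 1 factor per library) were not tested. Overlapping and antisense genes were treated as not separable.

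For each symbol the transcript of highest mean count over the 6 libraries was used. The groups were compared with edgeR (4.0.16, R 4.3.3) by its quasi-likelihood test after TMM scaling and filterByExpr with a minimum count of 10, prior count of 0.125, genotype as the only term, and Benjamini-Hochberg adjustment over 17405 genes at 0.05. The SE is the fold change over the root of F, and CPM use TMM-scaled library sizes. Lengths were taken from GENCODE M21, by coordinates for 32 members and by symbol for 22. Stretches of 50 bases were compared with all M21 transcripts on both strands. Members at an unadjusted p below 0.05, all eIF2 subunits and the kinases are given in every library, with the 4 listed partner genes of smallest p and the 5 genes most like Eif2s1. The members and lists were chosen with earlier results of these data known. DESeq2 1.42.0, other size factors, no filter, a replicate block, a length and GC offset, sums over transcripts and leaving out each library were tried.

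No 2 libraries of a genotype agreed within sampling noise (chi-square per degree of freedom 1.75 to 4.31), and the common coefficient of variation was 0.0464. The edgeR step was tested on simulated data.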

Additional observations from a re-analysis of the deposited data

How the results depend on the processing

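The log2 fold change of Eif2s1 was between -0.33 and -0.29 in 14 alternatives, with an adjusted p from 0.0106 (no filter) to 0.275 (sum over transcripts), and 2 of the 14 passed the threshold, the fit with no filter and that with DESeq2's size factors in edgeR (0.0496). The number of members called was 0 in DESeq2, with the replicate block, with the block and the length and GC offset, with the offset, with the offset and WT replicate 1 left out, and with sums over transcripts, and it was 0 to 0 when any 1 library was left out. Over all genes, the number called was 28, and it became 151 with no filter, 16 with the block and offset, 7 with sums over transcripts and 6 to 105 when 1 library was left out, lowest without Dicer1-ifKO replicate 1 (6) and highest without WT replicate 2 (105; 18, 14 and 18 without WT replicate 1, WT replicate 3 and Dicer1-ifKO replicate 2). It was 28 in DESeq2. Member transcripts called numbered 1 with no filter and 0 to 5 when 1 library was left out. The cause of these changes was not tested.

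Same-numbered libraries of the genotypes had correlations of deviations of -0.068, 0.0279 and -0.0864. No WT library correlated best with the Dicer1-ifKO library of its own number. With so few libraries, these values do not show a pairing by replicate number and cannot exclude one. With the replicate block Eif2s1 stayed at -0.31 (adjusted p = 0.0953), and 22 genes and 0 members were called.

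Of 238 alternative values for 17 named genes, 216 kept their direction and side of the threshold and 10 changed sign: Eif2ak2 (0.03, 0.04 and 0.05), Eif2ak3 (0.02) and Eif2s3y (-0.05 and -0.03) with 1 library left out (ranges -0.10 to 0.05, -0.18 to 0.02 and -0.05 to 0.15), and Eif2ak4, at -0.004 without WT replicate 1, -0.01 with the offset, -0.004 with the block and offset, and -0.02 with the offset and WT replicate 1 left out (range without 1 library -0.004 to 0.06). None of these genes passed the test in any setting.

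Eif4e1b, with counts of 0 or 1 in every library, did not pass the filter on low counts.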
